A study of Mus musculus with 4 samples.

Results

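The double knockdown of Ptbp1 and Ptbp2 was compared with the knockdown of Ptbp2 alone in N2A cells, a mouse neuroblastoma line, to ask what further loss of Ptbp1 does when Ptbp2 is already reduced. The 2 libraries were chosen by their labels, out of 4 in all. The first came from cells transfected with an shRNA against Ptbp2, and the second from cells given shRNAs against both Ptbp1 and Ptbp2. The other 2 libraries, from a control shRNA and from an shRNA against Ptbp1 alone, serve here as reference levels. All cells, controls included, were held with lipid and plasmid complexes for 5 hours and then cultured for 3 days, and RNA was taken from the whole culture without selection for transfected cells as far as the labels say. Each group holds 1 library, so no spread between replicates exists and no p-value is given. Intervals below cover counting error only, and a difference between the 2 libraries cannot be told apart from a difference between any other 2 cultures.

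Polypyrimidine tract-binding proteins bind pyrimidine-rich RNA, mostly in introns, and often keep nearby cassette exons out of the mRNA. Ptbp1 is made by most cells outside mature neurons, and Ptbp2 is its close relative in developing neurons. Ptbp1 also causes skipping of an exon of Ptbp2, which sends that transcript to nonsense-mediated decay, so cells that lose Ptbp1 usually make more Ptbp2. In neuronal differentiation Ptbp1 falls first and Ptbp2 later, and neuron-specific exons become included.

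Exons were measured by junction inclusion, the mean of the reads across both junctions of a cassette exon as a percentage of that mean plus the reads that skip it. An exon was counted when both libraries had 20 or more such reads and inclusion differed by 20 percentage points or more. Genes were measured by reads on listed exons, scaled between libraries and given per M reads (CPM), and by FPKM, fragments per kilobase and per M, rescaled within each library. A gene was counted at a 2-fold difference, with folds on the CPM + 0.1 scale. The sequences below are exons with large differences between the libraries, some of them with uneven junction reads, as given further down. They include very short exons, which carry few codons, and exons of both directions. Capitals mark the cassette exon and lower case marks 15 bases of the flanking exons, as joined in the mRNA of GENCODE vM21 (GRCm38), whereas positions are on mm9 as in the deposited files.
Fnbp1, 15 nucleotides, chr2:30900402-30900416, minus strand: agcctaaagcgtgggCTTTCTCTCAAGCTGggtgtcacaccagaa
Ap1b1, 21 nucleotides, chr11:4933245-4933265, plus strand: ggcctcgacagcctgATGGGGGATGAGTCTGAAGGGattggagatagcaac
Tmem184b, 21 nucleotides, chr15:79194088-79194108, minus strand: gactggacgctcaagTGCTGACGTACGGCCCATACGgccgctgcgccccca
Atp8a1, 45 nucleotides, chr5:68147889-68147933, minus strand: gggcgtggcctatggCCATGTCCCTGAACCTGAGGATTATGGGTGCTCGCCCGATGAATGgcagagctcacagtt
Anxa7, 66 nucleotides, chr14:21286680-21286745, minus strand: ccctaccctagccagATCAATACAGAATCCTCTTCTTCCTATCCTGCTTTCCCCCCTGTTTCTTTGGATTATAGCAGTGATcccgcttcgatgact
Kansl3, 78 nucleotides, chr1:36404062-36404139, minus strand: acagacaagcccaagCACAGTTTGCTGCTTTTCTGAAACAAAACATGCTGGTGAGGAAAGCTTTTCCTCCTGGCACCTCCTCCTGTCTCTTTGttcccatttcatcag
Dpf2, 42 nucleotides, chr19:5903731-5903772, minus strand: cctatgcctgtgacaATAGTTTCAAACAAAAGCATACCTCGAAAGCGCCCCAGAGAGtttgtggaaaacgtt
Tmem63b, 39 nucleotides, chr17:45815912-45815950, minus strand: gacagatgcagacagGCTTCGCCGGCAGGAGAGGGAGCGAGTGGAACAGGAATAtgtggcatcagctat
Flnc, 99 nucleotides, chr6:29402799-29402897, plus strand: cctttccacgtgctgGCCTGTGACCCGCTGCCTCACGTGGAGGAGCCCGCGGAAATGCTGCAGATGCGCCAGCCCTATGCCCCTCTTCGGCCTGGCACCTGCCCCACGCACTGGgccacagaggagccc
Arhgap39, 93 nucleotides, chr15:76560794-76560886, minus strand: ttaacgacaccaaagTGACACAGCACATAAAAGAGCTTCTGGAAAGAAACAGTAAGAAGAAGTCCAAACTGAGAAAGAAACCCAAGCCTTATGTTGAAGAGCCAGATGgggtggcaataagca
The exons of Anxa7 and Kansl3 hold runs of C and T, and the 15 bases of Fnbp1 open with one. All but the last 3 of these exons were more included in the double knockdown.

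The library of the Ptbp2 knockdown held 244.85 M reads on listed exons and 69.70 M junction reads, and that of the double knockdown 260.45 M and 72.80 M. The other 2 libraries lay between 209.67 and 260.90 M exon reads. Mitochondrial transcripts held 10.63% of assembled bases in the single Ptbp2 knockdown and 9.97% in the double knockdown. The summed level of 11 neuroblast and sympathetic markers was 1431 CPM in the single Ptbp2 knockdown and 1233 CPM in the double knockdown, while microglial markers summed to 0.0696 and 0.114 CPM. Other lists held more reads: astrocyte markers summed to 12.5 and 10.6 CPM, endothelial ones to 11.2 and 12.4, oligodendrocyte ones to 6.12 and 4.19, fibroblast ones to 2.42 and 3.30, and muscle ones to 2.25 and 1.99. Few members made up these sums. Only 1 astrocyte, 1 oligodendrocyte, 1 fibroblast, 1 muscle and 2 endothelial markers reached 1 CPM in either library. Of these lists, Aqp4 and Gja1 of astrocytes, Mag of oligodendrocytes, Kdr of endothelium and Myod1 of muscle had no read in either library. The part of such cells in the results was not tested.

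Ptbp1, the targeted gene, was read at 735 CPM in the single Ptbp2 knockdown and 144 CPM in the double knockdown, 5.10-fold lower (log2 difference -2.35, counting interval -2.37 to -2.34). Control stood at 645 CPM and the Ptbp1 knockdown at 188 CPM. In a pool of cells, fewer cells that express a gene and less RNA per cell cannot be told apart. Ptbp2, targeted in both, was not equal in them. It stood at 37.3 CPM in the single Ptbp2 knockdown and 58.5 CPM in the double knockdown, 1.57-fold higher, against 139 CPM in control and 270 CPM in the Ptbp1 knockdown. These levels are 26.9% and 42.2% of control. By FPKM the values were 10.8 (95% interval 10.1 to 11.6) and 20.6 (19.2 to 22). The double knockdown thus combined less Ptbp1 with more Ptbp2 RNA than the single one, and Ptbp2 was reduced rather than absent in both. Ptbp3, the third member of the family, was at 90.7 CPM and 80.6 CPM in these libraries, and at 151 CPM in control.

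The short exon whose skipping removes Ptbp2 moved as well. This 34-nucleotide coding exon (chromosome 3, 119427530 to 119427563) was included in 42.7% of junction reads in the single Ptbp2 knockdown (Wilson 95% interval 32.9 to 53.1, 89 reads) and in 84.5% in the double knockdown (78.5 to 90, 148 reads). Control was at 72.2% and the Ptbp1 knockdown at 94.5%. Ptbp3 carries a similar exon of the same length (chromosome 4, 59559021 to 59559054), which was at 30.6% and 77.4%. Both family exons were thus more included where Ptbp1 was lower.

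Among 101197 measured cassette exons, of 180955 listed, 417 were higher in the double knockdown (0.412%) and 177 were lower (0.175%). They lay in 355 and 148 genes. After exons that overlap one another were merged, 403 and 170 remained. Wilson intervals of the 2 libraries were apart for 368 of the 417 and 137 of the 177. Higher exons made up 70.2% of those counted. Among the higher exons, 91 were higher by 50 points or more, and 51 went from under 10% to over 50% inclusion. In the other direction 8 exons were lower by 50 points or more. Just inside the threshold, an exon of Fastkd5 went from 36.0% to 56.0%, and just outside it an exon of Flna went from 59.3% to 79.3%. On the lower side the exons nearest the threshold were those of Miip, inside at -20.03 points, and Hp1bp3, outside at -19.98 points.

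**Figure D1:**
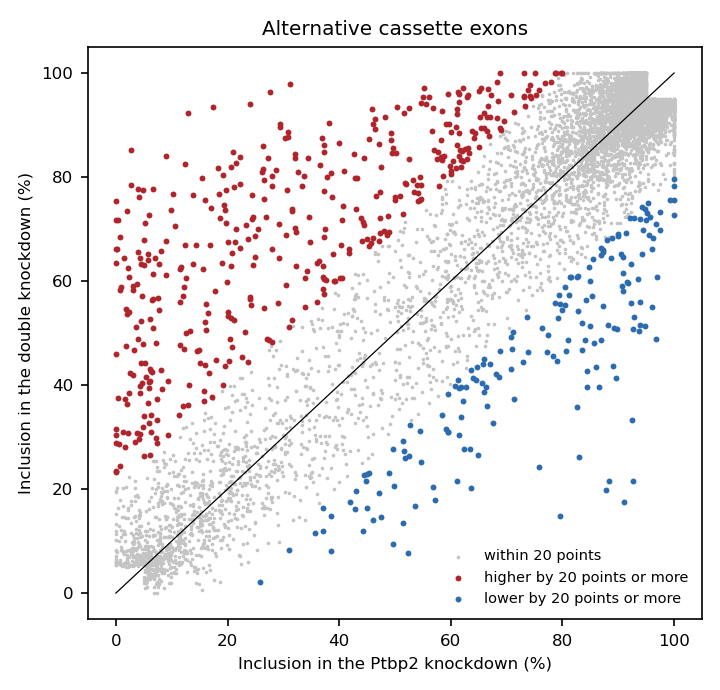
Junction inclusion in the Ptbp2 knockdown (horizontal axis, %) against the double knockdown (vertical axis, %) for cassette exons that were neither below 5% nor above 95% in both libraries. Red points mark the 417 exons higher by 20 points or more and blue points the 177 lower ones. The line marks equal inclusion. Red points crowd the left edge, where an exon was nearly absent from the Ptbp2 knockdown.

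Most of the exons with the largest gain were rare in both libraries with Ptbp1. Atp8a1, a phospholipid flippase, had its 45-nucleotide exon in 3.34% of junction reads in control, 50.4% with Ptbp1 knockdown, 2.63% with Ptbp2 knockdown (0.725 to 9.10, 76 reads) and 85.1% in the double knockdown (76.9 to 90.8, 101 reads). Anxa7, a calcium-dependent membrane-binding protein, had its 66-nucleotide exon at 3.52%, 57.3%, 2.69% and 78.5% in the same order. Its junctions in the double knockdown were uneven, with 86 reads upstream and 322 downstream. With only the junction of fewer reads, the gain was 59.3 points. Cers5, a ceramide synthase, had the best covered of these exons, 107 nucleotides long (chromosome 15, 99567978 to 99568084), at 3.74%, 62.3%, 2.00% (1.40 to 2.76) and 73.5% (71.4 to 75.6). In all 3 the Ptbp1 knockdown lay between the control and the double knockdown, and the exon was rare in the Ptbp2 knockdown too. A 69-nucleotide exon of Osbpl9, a lipid transfer protein, was at 3.90% and 77.8% in the Ptbp2 and double knockdowns. A 141-nucleotide exon of Ralgapa1, which switches off Ral GTPases, was at 4.07% and 76.1%.

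A second group started lower in the Ptbp2 knockdown than in control. Kansl3, a subunit of a histone acetyltransferase complex, had its 78-nucleotide exon at 41.1% in control, 82.6% with Ptbp1 knockdown, 12.9% with Ptbp2 knockdown (10.8 to 15.2, 872 reads) and 92.4% in the double knockdown (90.6 to 94.0, 930 reads). Gabbr1, a subunit of the GABA-B receptor, had a 151-nucleotide exon (chromosome 17, 37204159 to 37204309) at 62.8%, 93.6%, 27.5% and 96.4%. Clip2, which binds microtubule ends, had a 105-nucleotide exon (chromosome 5, 134980604 to 134980708) at 38.0%, 68.5%, 17.5% and 93.4%. For these exons the difference between the double and the Ptbp2 knockdown was larger than that between the double knockdown and control. Of the 400 higher exons measured in all libraries, 255 were 20 points or more above control in the double knockdown without being 20 points below it in the Ptbp2 knockdown. Another 46 were 20 points or more below control in the Ptbp2 knockdown, with the double knockdown less than 20 points above control. In 12 both held and in 87 neither. The exons were chosen by the Ptbp2 library, which favours low values there, so these counts describe the set and are no test.

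Very short exons were common. Of the 417 higher exons, 75 (18.0%) had 27 nucleotides or fewer, against 0.568% of all measured exons and 2.58% of the 6474 alternative exons that were not counted. Among the 177 lower exons 5 (2.82%) were that short, in Nckap1, Gatad2a, Mroh1, Iffo1 and Sting1, named for their length after their values were seen. Fnbp1, which bends membranes and links them to actin, had its 15-nucleotide exon at 8.57% in control, 56.1% with Ptbp1 knockdown, 4.78% with Ptbp2 knockdown and 77.5% in the double knockdown. Tmem184b, a membrane protein, had its 21-nucleotide exon at 9.94%, 56.1%, 12.5% and 82.4%. Ap1b1, a subunit of the AP-1 clathrin adaptor, differed from these in the Ptbp1 knockdown. Its 21-nucleotide exon was at 0.401% in control, 15.4% with Ptbp1 knockdown, 0.399% with Ptbp2 knockdown (0.136 to 1.17, 752 reads) and 71.8% in the double knockdown (67.5 to 75.7, 464 reads). In the double knockdown its upstream junction had 570 reads and its downstream junction 96. Junctions were uneven there for Fnbp1 (51 and 369 reads) and Tmem184b (79 and 484) as well. With only the junction of fewer reads, the gains of Fnbp1, Tmem184b and Ap1b1 were 45.2, 52.7 and 42.3 points. The 21-nucleotide exon of Exoc1, a subunit of the vesicle-tethering exocyst, was at 5.06% and 63.1%. Its gain was 41.9 points with only the junction of fewer reads.

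Higher exons had a median length of 78 nucleotides (quartiles 36 and 126), and lower exons one of 109. The length was a multiple of 3, which keeps the reading frame, in 73.6% of the higher exons and 56.5% of the lower ones, against 38.9% of all measured exons and 42.3% of the alternative exons not counted. Of 396 higher exons matched to the annotation, 300 were coding in every protein-coding transcript that holds them, 26 were untranslated and 21 occurred only in transcripts annotated for nonsense-mediated decay. Ptch1, the receptor for Hedgehog ligands, had the largest difference among those 21. Its 127-nucleotide exon (chromosome 13, 63638790 to 63638916) was at 13%, 54.5%, 9.03% and 84.0% in control and the Ptbp1, Ptbp2 and double knockdowns. The letters of the exons also differed: pyrimidines made up a median of 50.8% of higher exons, 46.4% of lower exons and 48.1% of alternative exons not counted. Among exons of 60 to 120 nucleotides, TCTT on the sense strand, overlapping matches counted once, occurred in 44.1% of 136 higher exons, 28.4% of 74 lower ones and 33.1% of 2527 not counted. On the opposite strand the shares were 24.3%, 43.2% and 44.3%. Introns, where PTB proteins mainly bind, were not read here.

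**Figure D2:**
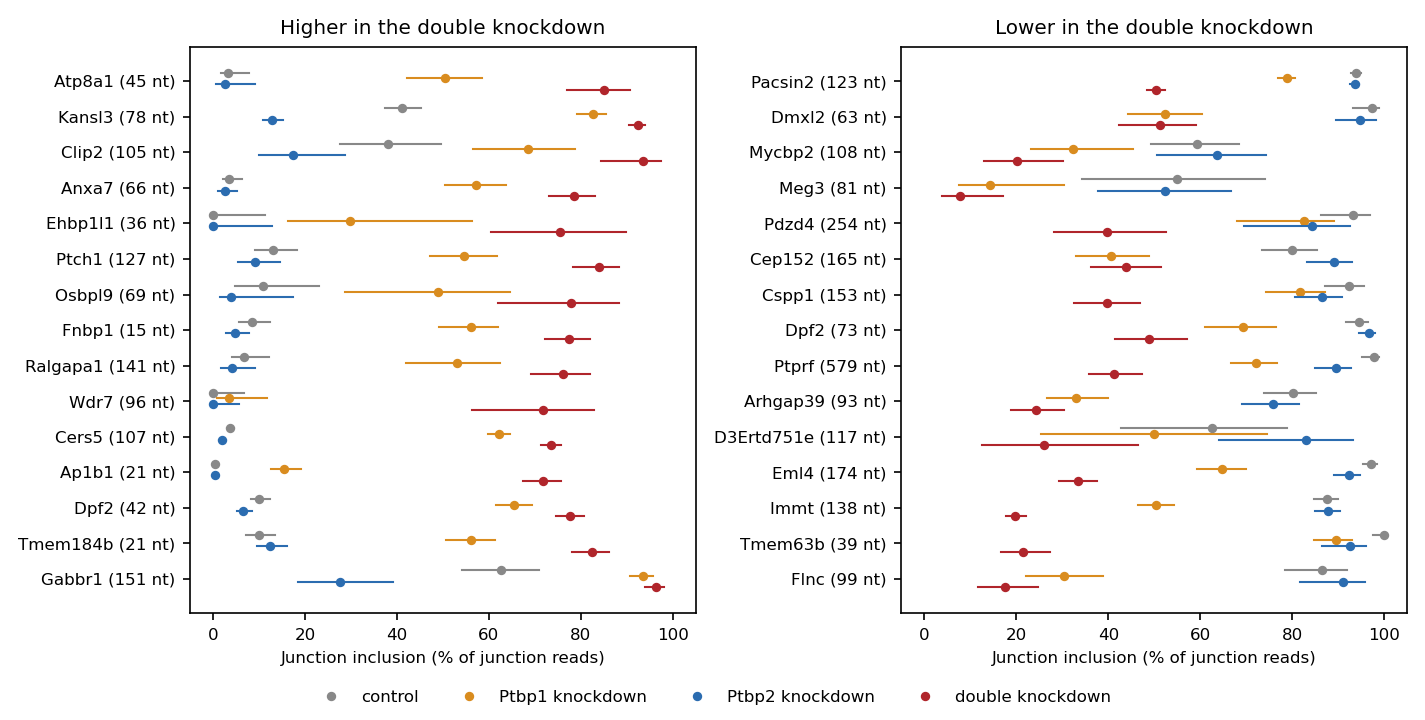
Junction inclusion (horizontal axis, % of junction reads) of the 15 exons with the largest gain (left) and the 15 with the largest loss (right) in the double knockdown, at most 1 per gene and direction. Points are the 4 libraries and bars their Wilson 95% intervals, which cover counting error only. The Ptbp2 knockdown (blue) lies at or below control (grey) for most exons on the left, with the Ptbp1 knockdown (orange) between control and the double knockdown (red) for all of them.

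Exons with the largest loss in the double knockdown were mostly included in the Ptbp2 knockdown. Flnc, filamin C, an actin crosslinker, had its 99-nucleotide exon at 86.6% in control, 30.4% with Ptbp1 knockdown, 91.0% with Ptbp2 knockdown (81.8 to 95.8, 67 reads) and 17.5% in the double knockdown (11.6 to 24.7, 128 reads). Immt, which organises the inner mitochondrial membrane, had a 138-nucleotide exon (chromosome 6, 71802724 to 71802861) at 87.6%, 50.3%, 87.8% and 19.8%. Shorter forms of the same Immt exon, 105 and 102 nucleotides long, account for another 2 of the 8 exons lower by 50 points or more. Eml4, a microtubule-binding protein, had a 174-nucleotide exon at 97.3%, 64.8%, 92.4% and 33.3%. These 3 exons were close to full inclusion in both libraries with Ptbp1, intermediate in the Ptbp1 knockdown and lowest in the double knockdown.

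Tmem63b, a mechanically gated cation channel, showed a different order. Its 39-nucleotide exon was at 100% in control, 89.5% with Ptbp1 knockdown, 92.6% with Ptbp2 knockdown (86.6 to 96.1, 122 reads) and 21.5% in the double knockdown (16.6 to 27.4, 223 reads). Only in the double knockdown was it below 89%. The 93-nucleotide exon of Arhgap39, which switches off small GTPases, was at 80.1%, 33.0%, 75.8% and 24.2%, so its Ptbp1 knockdown value was near that of the double knockdown. A 117-nucleotide untranslated exon of D3Ertd751e was at 83.0% and 26.1%, on 23.5 and 23 reads.

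Further lower exons lay in Ptprf, a receptor phosphatase of axons (89.6% to 41.3%), Mycbp2, a ubiquitin ligase of axons (63.6% to 20.2%), and Cep152, a centriole protein (89.1% to 43.8%). Pacsin2, which bends membranes, had the best covered of them, at 93.6% (92.5 to 94.6) and 50.3% (48.3 to 52.3). Exons of Cspp1, Pdzd4 and the noncoding RNA Meg3 were lower by 46.8, 44.8 and 44.7 points. Wdr7 and Dmxl2, partners that regulate the proton pump of vesicles, moved in opposite directions. The 96-nucleotide exon of Wdr7 was at 0% in control, 3.45% with Ptbp1 knockdown, 0% with Ptbp2 knockdown (0 of 64 reads, which allows up to 4.69%) and 71.8% in the double knockdown, and the 63-nucleotide exon of Dmxl2 was at 97.3%, 52.4%, 94.7% and 51.3%.

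Dpf2, a subunit of the BAF chromatin remodelling complex, appears in both directions. Its 42-nucleotide exon, the mark of a known longer isoform, was at 10.1% in control, 65.5% with Ptbp1 knockdown, 6.61% with Ptbp2 knockdown (5.17 to 8.41, 908 reads) and 77.7% in the double knockdown (74.5 to 80.7, 710 reads). In the double knockdown this exon had 165 reads on its upstream junction and 938 downstream. With only the junction of fewer reads, this exon gained 49.5 points. The 73-nucleotide exon next to it (chromosome 19, 5904240 to 5904312) was counted as lower, from 96.7% to 48.9%, but had 0 and 1 reads on its upstream junction. A form of that exon 79 nucleotides long had 655 and 603 reads there and went from 98.6% to 87.2%. Its downstream junction, which passes over the 42-nucleotide exon, fell to 238 reads from 1078. The lower value of the 73-nucleotide form therefore rests on that 1 junction, and the gain of the 42-nucleotide exon moved with it. Across the whole set, 3 of the 177 lower exons had a counted higher exon inside the introns of their trio.

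Exons already known to respond to PTB proteins were looked up from a list of 49 genes, 42 of which had a measured exon. In 24 of the 42 (57.1%) an exon was counted, 21 with the largest difference upward and 3 downward, against 4.99% of all 9752 genes with a measured exon. The list was written from knowledge of PTB targets and with earlier results of these data known. Neither the share of genes counted nor the direction is therefore independent support. Exoc7, a further exocyst subunit, had a 93-nucleotide exon at 55.1% in control, 83.5% with Ptbp1 knockdown, 29.4% with Ptbp2 knockdown and 90.1% in the double knockdown. Dlg4, the postsynaptic scaffold PSD-95, had a 110-nucleotide exon at 47.3%, 70.9%, 26.3% and 86.0%. Skipping of this exon shifts the reading frame, and PTB proteins are known to cause it. Tnrc6a, a partner of Argonaute in microRNA silencing, went from 29.5% to 89.6% between the Ptbp2 and double knockdowns. A neuronal 36-nucleotide exon of Clta, clathrin light chain A, went from 11.4% to 62.3%, and a 54-nucleotide exon of Cltb from 0.654% to 24.5%.

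The junction scaffold Magi1 (89 nucleotides, 2.38% to 60.8%) and the adhesion molecule Ncam1 (801 nucleotides, 19.8% to 59.8%) followed the same direction. The 3 genes whose largest difference was downward were Ktn1 (61.1% to 21.6%), Ank3 (47.5% to 14.6%) and Numb (46.1% to 14.0%). Numb, which restrains Notch signalling, stood at 20.2% in control and 13.4% in the Ptbp1 knockdown, so the Ptbp2 knockdown was the library that stood apart. Several textbook targets had no counted exon: the exon of the pyruvate kinase gene Pkm with the largest difference, not one of its well-known exclusive pair, was at 100% and 99.8%, and a 24-nucleotide exon of Mef2a at 4.4% and 15.0%. Exons of Grin1, Fgfr1 and Picalm differed by 6.75, -2.30 and 5.71 points.

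Other kinds of splicing event were measured by the ratio the authors deposited, and counted at a difference of 0.2. Of 2939 alternative 3' splice sites 24 were higher (0.817%) and 27 lower (0.919%). Of 1879 alternative 5' splice sites 22 were higher (1.17%) and 10 lower (0.532%), and of 726 retained introns 7 were higher (0.964%) and 5 lower (0.689%). Kif1b, a kinesin of axonal transport, used the longer form of a 3' splice site at 14.7% in control, 64.9% with Ptbp1 knockdown, 7.30% with Ptbp2 knockdown and 82.9% in the double knockdown. The 3' splice site of Mon2, a regulator of endosome traffic, which adds 3 nucleotides, was at 17.1%, 65.3%, 15.1% and 77.0%. Psap, the precursor of the saposins of lysosomes, had a 27-nucleotide extension of a 5' splice site at 91.5%, 62.5%, 95.4% and 38.2%. Usp5, a deubiquitinase, had a 69-nucleotide one at 12.2%, 49.8%, 7.10% and 66.8%. A retained intron of Med22, a Mediator subunit, was at 68.9%, 42.2%, 54.9% and 17.6%. In these 5 events, and in 15 of the 18 with the largest differences of each kind and direction, the Ptbp1 knockdown lay on the same side of control as the double knockdown. The other 3 were the 3' splice sites of Shd (49.5% in control, 53.6% with Ptbp1 knockdown, 20.5% in the double knockdown) and Zfp949 (41.5%, 46.6% and 23.9%) and a 5' splice site of Parp9 (35%, 30.8% and 57.2%). Reads in the same order were 10, 37 and 23 for Shd, 31, 37 and 40 for Zfp949, and 22, 40 and 72 for Parp9. The minimum of 20 reads applied only to the 2 compared libraries, so the side of control is uncertain for Shd.

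Loss of Ptbp1 can be set beside its loss in the presence of Ptbp2, since the Ptbp1 knockdown and control are separate libraries. Between those, 235 of 100175 exons were higher (0.235%) and 103 lower (0.103%). Ptbp1 RNA fell less there than between the Ptbp2 and double knockdowns, and Ptbp2 RNA rose above control, at the levels given above. What part this has in the differences below was not tested. Of the 400 exons higher in the double knockdown and measured in all 4 libraries, 368 were also above control in the Ptbp1 knockdown, and 189 (47.3%) were counted as higher there. The difference was larger with Ptbp2 reduced for 377 of the 400, with a median of 34.5 points against 18.6. The exons were chosen for being large in the first of these, so that order is partly fixed by the choice. Read from the other side, of the 235 exons higher in the Ptbp1 knockdown 189 (80.4%) were counted as higher in the double knockdown against the Ptbp2 knockdown, and 166 had a larger difference there, with medians of 39.7 and 27.5 points. Among 162 lower exons 148 had the same sign and 52 (32.1%) were counted, with medians of -27.4 and -15.0 points. Of the 103 exons lower in the Ptbp1 knockdown, 52 (50.5%) were counted in the other comparison and 30 had a larger loss there, with medians of -20.4 points there and -25.2 in the Ptbp1 knockdown. They were chosen for a large loss in the Ptbp1 knockdown, which favours a smaller one elsewhere. Where all libraries had 50 or more reads, 26 of 63 had a larger loss and the medians were -25.8 and -25.6 points.

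In 62 of the 400 higher exons the Ptbp1 knockdown was less than 5 points above control or was below it, and in 31 of the 162 lower ones it was less than 5 points below control or was above it. Wdr7 was one of the 62, with 3.45 points in the presence of Ptbp2 against 71.8 points with Ptbp2 reduced. Ap1b1 had 15.0 and 71.4 points. At the other end, by the mean of both junctions, Exoc1 had nearly equal differences of 54.4 and 58.0 points, and Arhgap39 of -47.1 and -51.7 points. Across 7663 alternative exons measured in all libraries the differences had a Pearson r of 0.68 and a Spearman rank correlation of 0.44. This correlation is across exons, which share libraries and often transcripts, and describes these 4 libraries only.

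**Figure D3:**
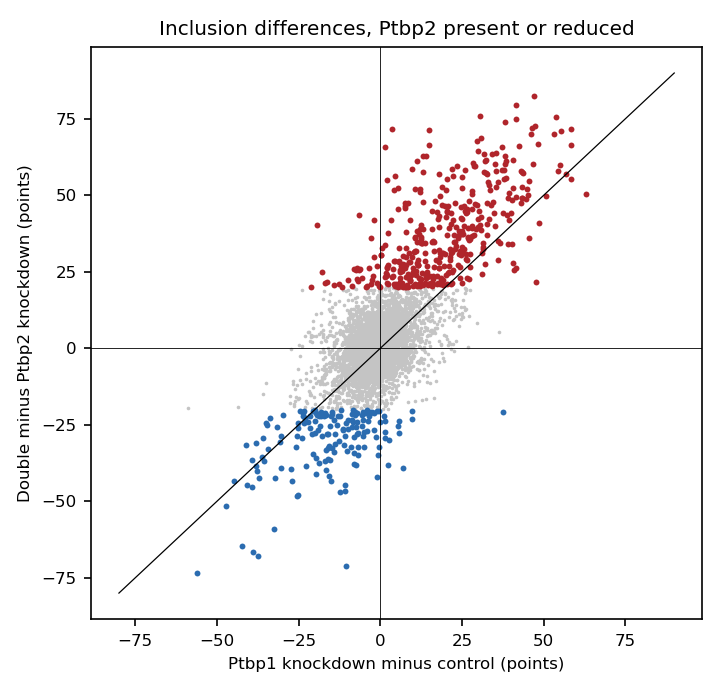
Inclusion difference between the Ptbp1 knockdown and control (horizontal axis, percentage points) against that between the double and the Ptbp2 knockdown (vertical axis) for alternative exons measured in all 4 libraries. Red and blue points are the exons counted as higher and lower on the vertical axis, grey the rest. The line marks equal differences, and 377 of 400 red points lie above it.

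At the level of whole genes, by exon reads 169 of 10657 genes were higher in the double knockdown (1.59%) and 77 lower (0.723%). By FPKM 84 of 6286 were higher (1.34%) and 51 lower (0.811%). Both measures were passed by 26 higher genes (0.414% of the 6276 tested in both) and 16 lower ones (0.255%). FPKM comes from transcripts assembled separately in each library, and 21 of the 135 genes counted by it had the opposite sign in exon reads. Of the 84 genes 2-fold in exon reads and tested by FPKM, 0 had the opposite sign by FPKM. With libraries scaled by total exon reads, 241 genes were higher and 59 lower, and on the deposited FPKM without rescaling 327 and 16. Just inside the 2-fold limit lay Dnah1 among the higher and Fbxo15 among the lower genes, and just outside it lay Prkar1b and Notch2.

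Genes with the largest differences in both measures included some of axons and synapses. The list of synaptic and axonal genes described below held 48 of the 10657 genes tested by exon reads and 7 of the 169 higher ones. In both measures it held 32 of the 6276 tested genes and 3 of the 26 higher ones. It was drawn up with earlier results of these data known. Kif5a, a neuronal kinesin heavy chain, was at 104 CPM in control, 258 with Ptbp1 knockdown, 79.4 with Ptbp2 knockdown and 213 in the double knockdown, 2.69-fold higher than with Ptbp2 knockdown alone (log2 1.43, counting interval 1.40 to 1.45). Napb, which recycles SNARE complexes, was at 35.8, 60.2, 30.8 and 79.3 CPM in the same order, and 2.57-fold higher. Both genes were above control in both libraries with less Ptbp1. Map6d1, which stabilises microtubules, was 2.86-fold higher and Apba1, an adaptor of synaptic vesicle release, 2.93-fold higher.

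Gng4, a G protein gamma subunit, and Dbh, which makes noradrenaline, took another course. Gng4 was at 10.9 CPM in control, 29.5 with Ptbp1 knockdown, 3.14 with Ptbp2 knockdown and 13.9 in the double knockdown, and Dbh at 47.2, 177, 17.4 and 49.6 CPM. Both were lower in the Ptbp2 knockdown than in control, and the double knockdown stood near control and below the Ptbp1 knockdown. Of 166 higher genes other than predicted ones, 54 were 2-fold above control in the double knockdown, 38 were 2-fold below control in the Ptbp2 knockdown, 1 met both and 73 neither. As with exons, the choice of members favours low values in the Ptbp2 library. Fbxw4, a ubiquitin ligase subunit, was 2.66-fold higher by exon reads (2.59 to 7.07 CPM) and listed at 0 FPKM in the Ptbp2 knockdown. Slc45a1, Kcnu1, Mras, Lrrc75b, Crispld2 and Niban1 were between 2.33-fold and 3.14-fold higher.

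Besides Ptbp1, the lower genes included some that tie actin to membranes and to the matrix. The actin list, also drawn up with earlier results known, held 32 of the 10657 genes tested by exon reads and 5 of the 77 lower ones. In both measures it held 21 of the 6276 tested genes and 3 of the 16 lower ones. Flna, filamin A, was at 1413 CPM in control, 412 with Ptbp1 knockdown, 1015 with Ptbp2 knockdown and 346 in the double knockdown, 2.93-fold lower (log2 -1.55, -1.56 to -1.54). Tln1, talin, which joins integrins to actin, was at 192, 136, 150 and 72.6 CPM, 2.06-fold lower, but with libraries scaled by total exon reads its log2 difference was -0.94, short of 2-fold. For both the lowest level was in the double knockdown and the next in the Ptbp1 knockdown. Emp1, a membrane protein of epithelia, was 2.82-fold lower, Plaur, the urokinase receptor, 2.45-fold, and Anxa5, which binds phosphatidylserine, 2.21-fold. Ehd2 of caveolae, the collagen hydroxylase P3h1, the formin Fmnl3, the kinase Pim3, Rab32, the myosin chaperone Unc45a, Adi1 and Rcn3 were 2.14-fold to 3.11-fold lower, of which Adi1 fell short of 2-fold, at -0.99 on the log2 scale, by total exon reads.

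**Figure D4:**
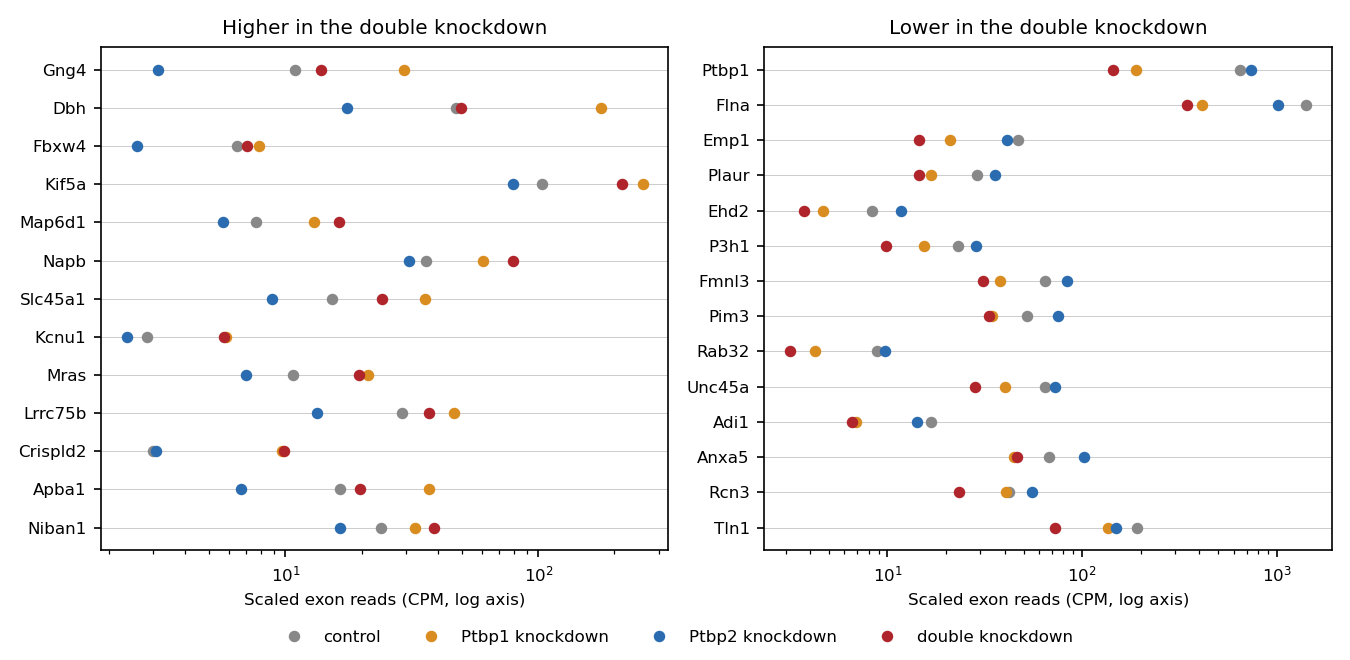
Scaled exon reads (horizontal log axis, CPM) of 13 higher and 14 lower genes with large differences that passed in both measures. Each point is 1 library. In the left panel the double knockdown (red) lies right of the Ptbp2 knockdown (blue) for every gene, with control (grey) most often between them. In the right panel the double knockdown lies left of the Ptbp2 knockdown for every gene. The Ptbp1 knockdown (orange) lies near the double knockdown for some genes, such as Flna, but for Tln1 it lies nearer the Ptbp2 knockdown.

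Gene lists drawn up for neurons, the cytoskeleton and general cell functions were described by their medians, beside a median log2 difference of -0.01 over all genes by exon reads and 0.07 by FPKM. Of all 10657 tested genes 49.2% were above 0, 1.59% were counted as higher and 0.723% as lower. For synaptic and axonal genes the median was 0.32 by exon reads and 0.40 by FPKM, the latter over 32 members. By exon reads 38 of 48 tested members were above 0, 7 counted as higher and 0 as lower. Vamp2, the SNARE protein of synaptic vesicles, was at 41.3, 110, 28.7 and 118 CPM in control and the Ptbp1, Ptbp2 and double knockdowns. Syn2, which tethers vesicles to actin, was at 225, 199, 110 and 234 CPM, so here the Ptbp2 knockdown stood apart. Grin1, an NMDA receptor subunit, and the scaffold Shank3 were also counted, at 16.5 and 35.9 CPM and at 1.02 and 3.01 CPM in the Ptbp2 and double knockdowns, but with a pseudocount of 1 CPM Shank3 fell short of 2-fold, at 0.99. Stmn2, a tubulin-binding protein of growth cones, lay on the other side, at 115 and 73.0 CPM. Targets of REST, the repressor of neuronal genes, had a median of 0.21, with 16 of 20 above 0 and 2 counted, Grin1 and Bsn, the latter at 0.94 with a pseudocount of 1 CPM. Of 14 neuronal splicing regulators 9 were above 0 with none counted, and Elavl4 had the largest difference at 0.51.

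Actin cytoskeleton genes had a median of -0.50, with 3 of 32 above 0 and 5 counted as lower, among them Flna, Tln1, Iqgap1 and Tpm3. Iqgap1, a scaffold at the cell cortex, was at 350, 126, 262 and 93 CPM in control and the Ptbp1, Ptbp2 and double knockdowns, and Tpm3, a tropomyosin, at 321, 147, 413 and 145 CPM. The members above 0 were Flnc, Myh10 and Vcl. Flnc stood at 48.2 CPM in the single Ptbp2 knockdown and 72.9 CPM in the double knockdown while its 99-nucleotide exon was lost. All 29 ribosomal protein genes were below 0 with a median of -0.40, and 29 of 30 SR and hnRNP splicing factors, the exception being Tia1, with a median of -0.27, none of them counted. By FPKM, with only 12 ribosomal and 17 SR and hnRNP genes tested, those medians were -0.16 and -0.11.

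Of 13 nonsense-mediated decay factors 3 were above 0, with a median of -0.23 and none counted. Ago4, an Argonaute, was the 1 counted gene of the microRNA pathway (2.46 to 6.78 CPM), Gata2 and Dbh were those of the noradrenergic list, Lss the 1 of cholesterol synthesis and Tyms the 1 of the cell cycle. Gata2, a transcription factor of sympathetic neurons, was lower, at 201 and 100.1 CPM, against 114 in control. Its log2 difference of -1.01 became -0.90 by total exon reads and -0.996 by the upper quartile, and that of Lss went from -1.06 to -0.95 by total exon reads, so neither call held there. No member was counted among differentiation factors, glycolysis, lysosome and autophagy, or stress and interferon genes, whose medians lay between -0.06 and -0.01. Scaling by total exon reads raised the median of all genes by 0.11, and turned the sign of the medians for these 4 lists and for the cell cycle (upper-quartile scaling turned only that of differentiation factors), but not for synaptic, REST, actin, ribosomal, or SR and hnRNP genes.

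**Figure D5:**
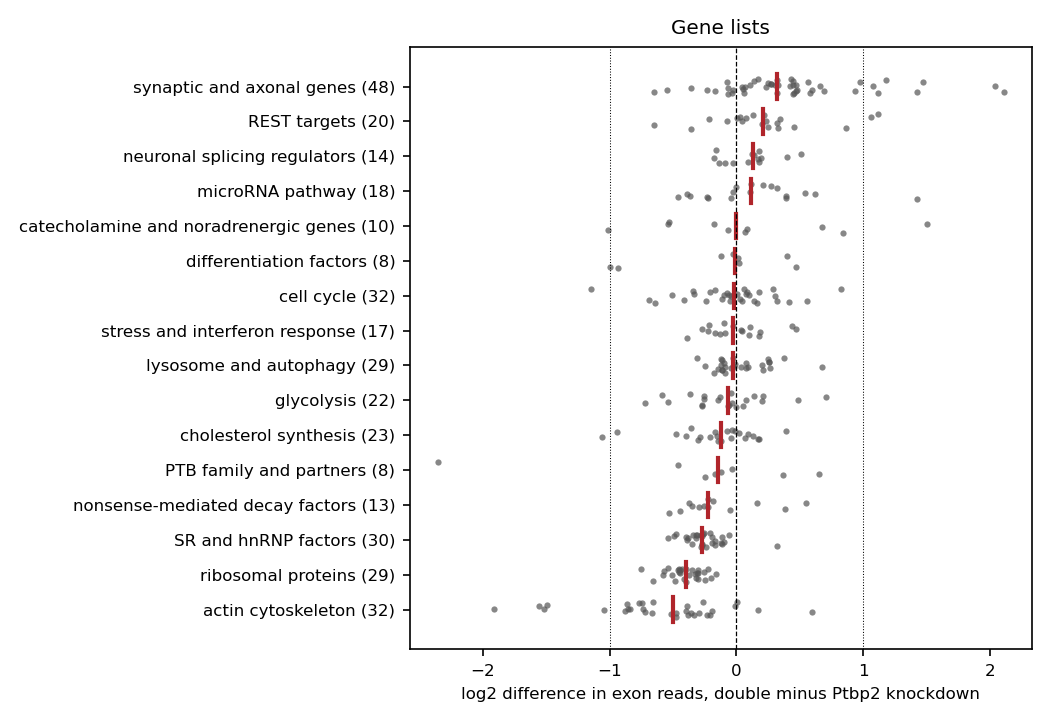
Log2 difference in scaled exon reads between the double and the Ptbp2 knockdown (horizontal axis) for the tested members of each list, with their number in parentheses. Each point is a gene, red bars are list medians, the dashed line is the median of all genes and dotted lines mark 2-fold. Synaptic and axonal genes have the highest median, 0.32, and actin cytoskeleton genes the lowest, -0.50.

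Few genes had both a counted exon and a 2-fold level. Of the 246 genes 2-fold in exon reads, 119 had a measured exon and 10 a counted one. These 10 are 8.40% of the 119, against 4.99% of all genes with a measured exon. Of the 42 genes passed in both measures 40 had a measured exon and 2 a counted one, Mcam and Slc8a1, which were named for this overlap after their values were seen. The 355 genes that host 397 of the 417 higher exons had a median log2 difference of 0.08, against -0.02 for all genes with a measured exon. Where the higher exon occurred only in transcripts annotated for nonsense-mediated decay, the median over 21 genes was -0.15, with 7 above 0 and 1 (4.76%) counted as lower. Where it was coding and kept the frame, the median over 225 genes was 0.08, with 1 (0.444%) counted as higher. Where it was coding and shifted the frame, the median over 38 genes was 0.25, with 27 above 0, 1 counted as higher and 2 as lower (7.89% together). Of all genes with a measured exon 1.22% were 2-fold. Gabbr1 was among the genes with both, with its exon at 27.5% and 96.4% and its level at 29.0 and 65.8 CPM.

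Gene levels can be set beside the loss of Ptbp1 in the presence of Ptbp2 as well. The Ptbp1 knockdown had 280 of 10592 genes 2-fold above control (2.64%) and 39 below (0.368%). Of 164 genes higher in the double than in the Ptbp2 knockdown and tested in both comparisons, 160 had the same sign and 95 (57.9%) were counted there. Of 67 lower genes 59 had the same sign and 17 (25.4%) were counted. Medians were 1.24 and 1.07 for the higher genes and -1.17 and -0.61 for the lower ones, with Ptbp2 reduced and present in that order. The genes were chosen for a 2-fold difference with Ptbp2 reduced, so which median is larger is partly fixed by the choice. Ptbp1 RNA itself fell less between control and the Ptbp1 knockdown, and its part here was not tested. Across all 10592 genes Pearson's r was 0.61 and Spearman's rank correlation 0.55, given as a description of these 4 libraries.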

How the data were processed

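Strand-specific RNA-seq (TruSeq RNA kit) of 4 N2A libraries was processed by the submitters with CASAVA, TopHat and Cufflinks on mm9, per the submitters' processing notes. Versions are not given in the sources used here. Gene levels were deposited as FPKM with Cufflinks intervals. The deposited transcript files also carry a coverage signal and a score, used only for their coordinates. Per the file headers, SpliceTrap tables give counts of reads on 3 junctions of each exon trio, an inclusion ratio that is a fraction, and exon coverage, which is a signal equal to reads times 100 over exon size.

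Exon reads were recovered from that coverage (largest distance from a whole number 0.0078), taken once per exon, summed per gene, scaled with median-of-ratios factors and set side by side as log2(CPM + 0.1), with 1 CPM in 1 library and 2-fold as limits. FPKM was divided by its library's sum of FPKM times length, compared as log2(FPKM + 1), with 3 FPKM in 1 library, status OK and intervals apart. Trios were named through deposited RefSeq identifiers, which named 93.9% of 218362 cassette trios, and of 27657 RefSeq transcripts 95.8% matched a symbol. Exon annotation and sequence came from GENCODE vM21, matched by symbol, exon length and both intron lengths. Inclusion intervals are Wilson intervals at 95%. An exon shared by trios counted once, but overlapping exons each counted. Depth limits single exons more than genes.

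Named genes were Ptbp1 to Ptbp3 and the 15 largest in each direction by the smaller of both measures without predicted genes. Named exons were the 15 largest in each direction, 1 per gene, and the largest of each gene with known PTB exons. From each list up to 4 members with the largest differences and at least 5 CPM were eligible, and other events up to 3 per type and direction. Genes outside this rule are marked or belong to a count. Some eligible ones are not reported here. The comparison, the members and the gene lists were chosen with earlier results of these data known. Python 3.11.15, numpy 2.4.6 and pandas 2.3.3 were used, and measures were tested on simulated data. Alternatives changed the pseudocounts, scaling, minimum levels and reads, thresholds and inclusion measure.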

Additional observations from a re-analysis of the deposited data

Results flagged for a closer look

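An exon of Eno4 (191 nucleotides, chromosome 19, 59021142 to 59021332) was higher by 20.2 points in the double than in the Ptbp2 knockdown, but lower by 21.1 points in the Ptbp1 knockdown than in control. Its inclusion was 75.6% in control, 54.5% with Ptbp1 knockdown, 40.5% with Ptbp2 knockdown and 60.7% in the double knockdown, on 22 to 60.5 reads. An exon without a gene name (135 nucleotides, chromosome 7, 26503164 to 26503298) went the other way, by -20.96 points in the first comparison and 37.7 in the second. It was at 35.6%, 73.3%, 66.0% and 45.0% in the same order. They are the only counted exons with opposite directions in the 2 comparisons. The Wilson intervals of the 2 compared libraries overlap for both, and the difference between the comparisons was not tested.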

How the results depend on the processing

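Genes by exon reads numbered 169 higher and 77 lower. They were 74 and 42 with a pseudocount of 1 CPM, 700 and 397 at 1.5-fold and 26 and 10 at 3-fold, and the higher ones 268 with no CPM minimum and 89 with at least 5 CPM. By total exon reads, higher genes were 80.3% of those counted instead of 68.7%. Genes by FPKM (84 and 51) were 28 and 21 with a pseudocount of 5 FPKM and 327 and 16 on deposited FPKM without rescaling, and 48 were higher from 10 FPKM. Genes in both measures (26 and 16) were 48 higher at 1.5-fold, 3 and 5 at 3-fold, 42 higher with a pseudocount of 0.1 FPKM, 5 and 4 with one of 5 FPKM, 48 and 3 on deposited FPKM and 12 higher from 10 FPKM.

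Exons (417 and 177) were 220 and 81 with 100 reads, 1002 and 608 at 10 points and 246 and 64 at 30 points, and 112 were lower with 50 reads. Lower exons numbered 432 by the smaller inclusion junction, where 58.6% of counted exons were higher, and 274 by the SpliceTrap ratio. When both junctions had to pass, a choice made after the data were seen, 267 and 117 were left. By the smaller junction the 73-nucleotide exon of Dpf2 turned to 1.25 points, because that junction had 0 and 1 reads. At a ratio difference of 0.1, other events were 41 and 31 for retained introns, 97 and 61 for alternative 5' splice sites and 145 and 100 for alternative 3' splice sites, and 14 of the last were lower with 50 reads. Apart from the wider or narrower limits themselves, the cause of these differences was not tested. In every setting run for exons, for exon reads and for FPKM, higher ones outnumbered lower ones, but not for genes in both measures at 3-fold or from 10 FPKM (12 and 13). With 1 library a group no replicate could be left out, and no paired analysis was possible because no replicate numbers exist. Depth limits single exons with few reads, such as those of D3Ertd751e and Ehbp1l1.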

Other observations

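A few exons were lower in the Ptbp2 knockdown than in the other 3 libraries, with the Ptbp1 knockdown close to control. The double knockdown was close to control for Lef1 and below it for Epb41l2, Slmap and Dst. They were picked for this pattern after their values were seen, so the values are a description. Epb41l2, a membrane skeleton protein, had a 63-nucleotide exon at 89.6% in control, 94.2% with Ptbp1 knockdown, 22.3% with Ptbp2 knockdown and 78.7% in the double knockdown. Lef1, a transcription factor of Wnt signalling, had an 84-nucleotide exon at 82.0%, 84.1%, 26.3% and 81.5%. Slmap, a membrane-anchored protein, had a 63-nucleotide exon at 83.3%, 81.4%, 29.2% and 71.0%, and Dst, a cytoskeletal linker, an 18-nucleotide exon at 93.7%, 94.3%, 34.9% and 67.5%.

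Sympk, a scaffold of mRNA cleavage and polyadenylation, had an untranslated 126-nucleotide exon (chromosome 7, 19613246 to 19613371) at 0.415% in control, 1.80% with Ptbp1 knockdown, 0.285% with Ptbp2 knockdown and 66.2% in the double knockdown. Like the exon of Wdr7, it was rare in all libraries but the double knockdown. The Sympk exon lies outside the rule for named exons and was picked after its values were seen, so they are a description.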
